A study of Mus musculus with 12 samples.

Results

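The genes followed here are 10 members of the Notch pathway in mouse mammary organoids. They are the receptors Notch1, Notch2 and Notch3, the ligands Jag1, Jag2 and Dll1, and the Hes and Hey genes Hes1, Hey1, Hey2 and Heyl. They were chosen by name and are 10 of the 25210 genes in the table of read counts, and all 10 had enough counts to be tested. Organoids from the mammary glands of virgin FVB/N females aged 8 to 11 weeks were embedded in Matrigel low in growth factors and kept for 7 days in minimal medium. The 4 groups received the vehicle dimethyl sulfoxide (DMSO) or CHIR99021 at 1, 1.5 or 3 µM, and the labels give no other agent and no genotype that differs between them. CHIR99021 inhibits the kinase GSK3 and was given to raise WNT signalling through β-catenin, so the comparisons ask how Notch pathway transcripts stand as WNT activity is driven up. The cultures were 3 in number, 1 per animal, and each gave 1 library to every group, so that 12 stranded libraries of polyadenylated RNA were sequenced. Each library is a bulk sample of the organoids of 1 animal, in which all cell types were read together.

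Notch receptors are cut after a ligand on a neighbouring cell binds them. The freed intracellular domain enters the nucleus and joins the DNA-binding protein RBPJ and a Mastermind protein to switch on target genes. The Hes and Hey genes are the best known of these targets and code for basic helix-loop-helix repressors. In the mammary gland the pathway is known for its part in luminal cell fate, and the ligands Jag1 and Dll1 have been described in basal cells. Notch3, Hey1, Hey2 and Heyl are also known from blood vessels, in endothelial cells, pericytes or vascular smooth muscle.

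The libraries held 10129264 to 24485855 counts. Levels are given as CPM, which are counts brought to a common library size after scaling with TMM factors (trimmed mean of M-values). The epithelial markers Epcam, Cdh1, Krt8 and Krt18 were present in all 12 libraries and summed to between 1870.45 and 2975 CPM. The organoids were not purely epithelial in RNA. A list of 5 fibroblast genes summed to 1069, 5201 and 15356 CPM in the DMSO libraries of cultures 1, 2 and 3, and none of the epithelial, endothelial, pericyte, fibroblast or immune markers found in the table was at 0 in all libraries. In these bulk libraries fewer cells of a type and less RNA per cell cannot be told apart.

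Against DMSO, 1 of the 10 genes was called at 1 µM (adjusted p under 0.05 in edgeR's quasi-likelihood test), where 0.242% of the 15316 tested genes were called. That gene was Hey2, which was lower, beside 0.0522% of all genes called lower. At 1.5 µM, 3 were called, all lower (Notch2, Hey1 and Hey2), beside 27.3% of all genes and 11.8% called lower. With the replicate number as a block 5 were called at this dose, the further ones being Jag1 (higher, adjusted p = 0.0458) and Heyl (lower, adjusted p = 0.000734), beside 46.7% of all genes. At 3 µM, 8 were called, where 57.5% of all genes were called. Jag1 and Jag2 were higher, beside 29.9% of all genes, and Notch1, Notch2, Dll1, Hey1, Hey2 and Heyl were lower, beside 27.7%. The median log2 fold change of the 10 genes at 3 µM was −0.69, against −0.03 over all tested genes. The count of 8 in 10 stands beside a large background at this dose, so sizes and directions are given gene by gene. The 3 comparisons share the DMSO libraries. Scaling by library size alone moved the median of all genes at 3 µM to −0.23 and the split of all called genes from 4575 higher and 4239 lower to 3395 higher and 5404 lower. At 1.5 µM that split went from 2364 higher and 1813 lower to 2890 and 1554. Under that scaling Jag1 and Jag2 were still called higher at 3 µM, and all 6 genes called lower kept that call.

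**Figure D1:**
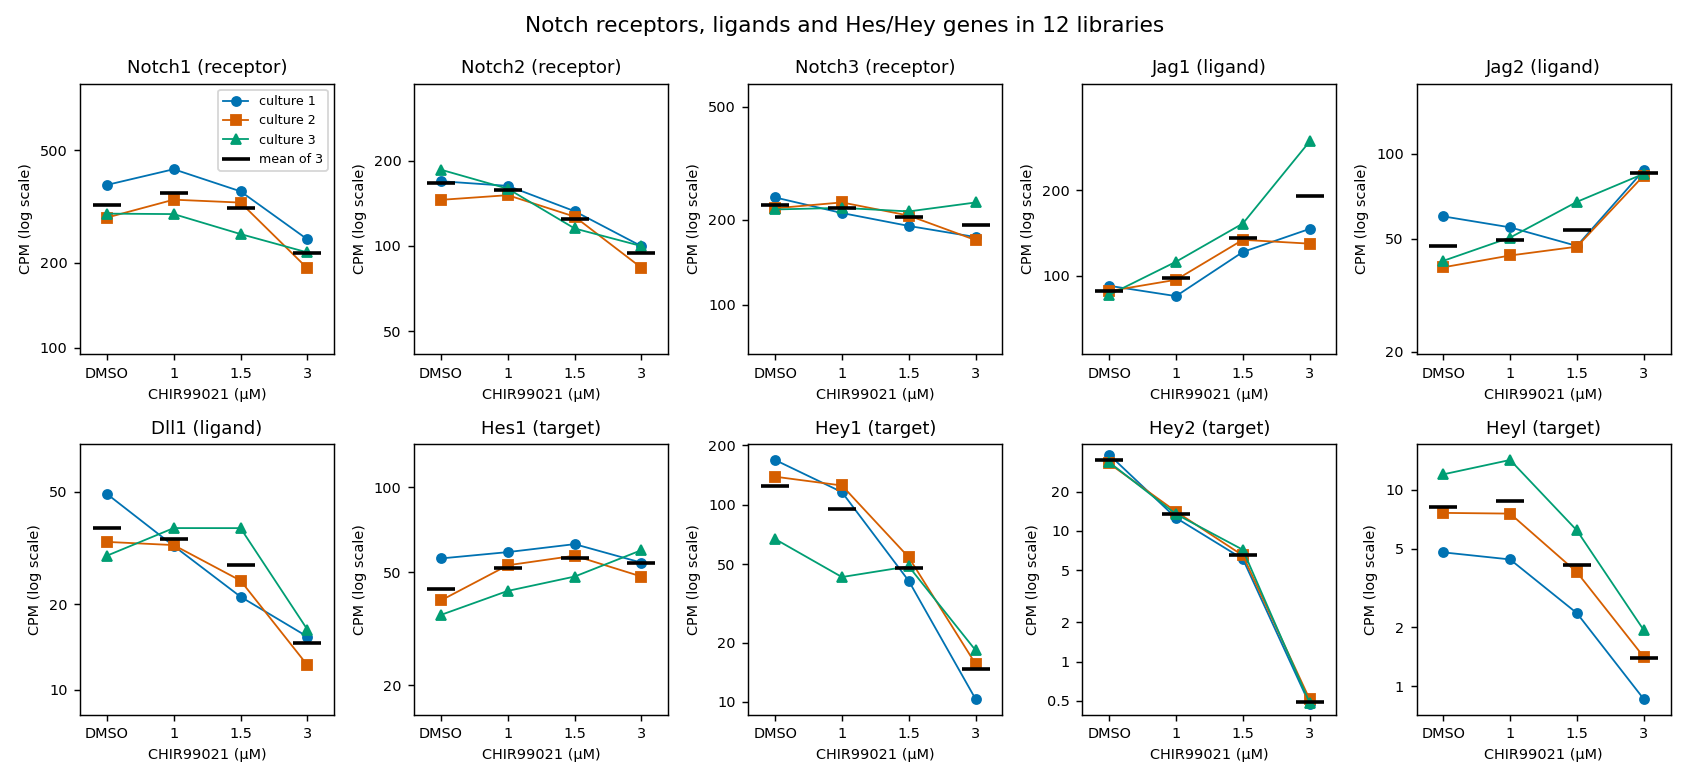
CPM of each of the 10 genes (log axis, each panel with its own range) against dose (evenly spaced categories), with 1 line per culture and black bars for the mean of 3. Hey2 fell at each dose with the cultures nearly superimposed, Jag1 at 3 µM was 298 CPM in culture 3 against 146 and 129.8 in cultures 1 and 2, and Notch3 and Hes1 kept overlapping values at DMSO and 3 µM.

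Notch1 (ENSMUSG00000026923, chromosome 2, 26457903 to 26516663, minus strand, GRCm38) codes for a receptor whose signalling is known in luminal progenitors. Its DMSO libraries held 376, 289 and 298 CPM in cultures 1, 2 and 3, and its 3 µM libraries 242, 191 and 217. All 3 µM values lay below all DMSO values. At 1 µM the values were 428, 334 and 297, and at 1.5 µM 357, 326 and 252, both overlapping the DMSO range. The log2 fold changes were 0.14 ± 0.176 (SE, adjusted p = 0.834), −0.04 ± 0.176 (0.882) and −0.57 ± 0.177 (0.0189) for 1, 1.5 and 3 µM in turn. The 3 µM call was lost without the DMSO library of culture 1 (adjusted p = 0.0717) and without the 3 µM library of culture 2 (0.0649). The drop lay between 1 and 3 µM, with −0.70 ± 0.177 (adjusted p = 0.00759). Between 1.5 and 3 µM it was −0.52 ± 0.176 (adjusted p = 0.0471), a call that was lost in 8 of the 12 fits that left out 1 library.

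Notch2 (ENSMUSG00000027878, chromosome 3, 98013538 to 98150367, plus strand) fell from the middle dose on. Its DMSO libraries held 169, 146 and 186 CPM and its 1 µM libraries 163, 151 and 159. At 1.5 µM the values were 133, 127 and 115, and at 3 µM they were 99.8, 83.7 and 99.9. The 4 groups separate in order of dose, apart from the overlap of DMSO with 1 µM. Notch2 had log2 fold changes of −0.08 ± 0.106 (adjusted p = 0.835), −0.42 ± 0.106 (0.0161) and −0.82 ± 0.107 (0.000131). The 1.5 µM call did not hold with library size alone as scaling (adjusted p = 0.0692), with only the 2 groups fitted (0.0570) or without the 1.5 µM library of culture 3 (0.0538). From 1 to 1.5 µM the change was −0.34 ± 0.106 (adjusted p = 0.0990). With the block it was called (adjusted p = 0.0279), and so it was by DESeq2 (adjusted p = 0.0353).

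Notch3 (ENSMUSG00000038146, chromosome 17, 32120820 to 32166880, minus strand) is the receptor best known from pericytes and vascular smooth muscle, and it is also found in luminal cells. It stood at 239, 219 and 217 CPM in DMSO and at 173, 169 and 229.7 at 3 µM. Cultures 1 and 2 lay below the DMSO range at 3 µM, and culture 3 lay within it. The log2 fold change was −0.24 ± 0.115 (adjusted p = 0.0992), and those at 1 and 1.5 µM were −0.03 ± 0.115 and −0.15 ± 0.115 (adjusted p = 0.954 and 0.367). Whether Notch3 is called at 3 µM depends on the setting. It was −0.43 (adjusted p = 0.0193) with library size alone, passed in DESeq2 (0.0497), and was −0.42 (0.00222) without the 3 µM library of culture 3.

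Overlapping genes on the opposite strand had few counts of their own in the table. The gene 0610009E02Rik inside Notch1 held 0.0938% as many counts as Notch1, Gm17276 at Notch3 held 0.260%, and A930024N18Rik at Dll1 held 1.46%. Whether the counting used the strand is not given in the sources used here. Jag1, Hes1, Hey1, Hey2 and Heyl overlap no other gene in GENCODE M21.

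The ligands split. Jag1 and Jag2 rose at 3 µM and Dll1 fell. Jag1 (ENSMUSG00000027276, chromosome 2, 137081456 to 137116644, minus strand) codes for a membrane ligand of the Serrate type. Its DMSO values were 92.1, 88.2 and 85.6 CPM. They were 84.7, 96.7 and 112.0 at 1 µM, 121, 134 and 153 at 1.5 µM, and 146, 129.8 and 298 at 3 µM. All libraries at 1.5 and 3 µM lay above all DMSO libraries. For Jag1 the log2 fold changes were 0.14 ± 0.267 (adjusted p = 0.898), 0.62 ± 0.268 (0.113) and 1.11 ± 0.270 (0.00552). Culture 3 at 3 µM carried much of the size. Without that library the 3 µM change was 0.62 ± 0.132 (adjusted p = 0.00332) and the 1.5 µM change was called (adjusted p = 0.00607).

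Jag2 (ENSMUSG00000002799, chromosome 12, 112908590 to 112929495, minus strand), the other Serrate-type ligand, was called against DMSO at the top dose alone. It stood at 60.1, 39.7 and 41.8 CPM in DMSO, at 54.9, 43.7 and 50.6 at 1 µM, at 47.2, 46.9 and 67.6 at 1.5 µM, and at 87.4, 83.7 and 85.0 at 3 µM. The 3 µM values were close together and above all 9 others. On the log2 scale Jag2 differed from DMSO by 0.07 ± 0.183 (adjusted p = 0.926), 0.19 ± 0.183 (0.467) and 0.85 ± 0.184 (0.00275). From 1.5 to 3 µM the change was 0.66 ± 0.183 (adjusted p = 0.0218), which was lost with library size alone (0.138) and in 4 of the 12 fits that left out 1 library.

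Dll1 (ENSMUSG00000014773, chromosome 17, 15367354 to 15376872, minus strand), the ligand of the Delta type, fell at 3 µM. Its values were 49.1, 33.2 and 29.7 CPM in DMSO, 32.1, 32.4 and 37.2 at 1 µM, 21.3, 24.2 and 37.1 at 1.5 µM, and 15.4, 12.2 and 16.3 at 3 µM. The 3 µM libraries lay below all others. At 1.5 µM cultures 1 and 2 were below the DMSO range and culture 3 was within it. Dll1 had log2 fold changes of −0.14 ± 0.236 (adjusted p = 0.880), −0.44 ± 0.237 (0.192) and −1.35 ± 0.242 (0.000938). The 1.5 µM change was called only without the 1.5 µM library of culture 3 (adjusted p = 0.0426) among the fits that were run. From 1.5 to 3 µM Dll1 fell by 0.91 ± 0.240 (adjusted p = 0.0180).

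**Figure D2:**
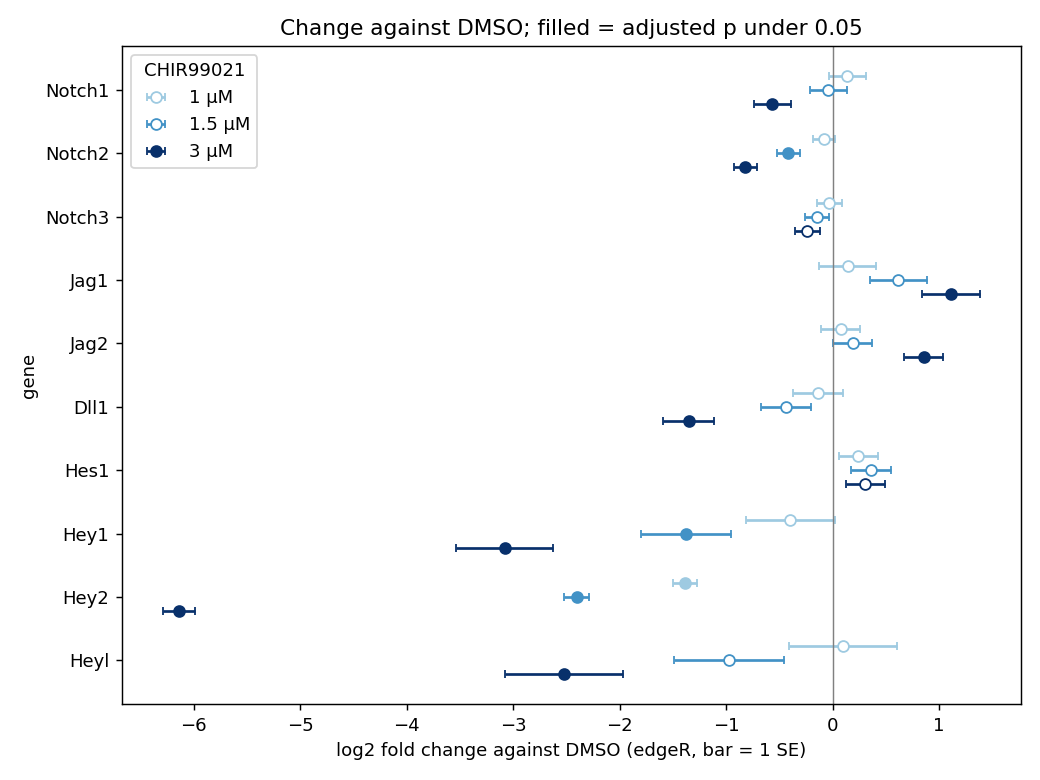
The log2 fold change of each gene against DMSO at 1, 1.5 and 3 µM (points, edgeR) with 1 SE on each side (bars). Filled points have an adjusted p under 0.05. Hey2 is filled at all 3 doses and reaches −6.14, Jag1 and Jag2 are the filled points to the right of 0, and Notch3 and Hes1 have no filled point.

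The Hes and Hey genes also split. Hey2 (ENSMUSG00000019789, chromosome 10, 30832359 to 30842801, minus strand), a repressor, fell at each dose and nearly alike in the 3 cultures. It stood at 38.4, 32.9 and 33.6 CPM in DMSO, at 12.6, 14.1 and 13.5 at 1 µM, at 6.11, 6.49 and 7.18 at 1.5 µM, and at 0.470, 0.513 and 0.483 at 3 µM, where the libraries held 6, 8 and 7 counts. No value of a dose overlapped that of another. Hey2 had log2 fold changes of −1.39 ± 0.116 (adjusted p = 0.00179), −2.41 ± 0.120 (7.59e-06) and −6.14 ± 0.152 (1.81e-08). The steps from 1 to 1.5 µM and from 1.5 to 3 µM were −1.02 ± 0.116 (adjusted p = 0.00336) and −3.73 ± 0.145 (9.03e-07). Only the 1 µM call depended on the setting, with an adjusted p of 0.0554 when the 1 µM and DMSO libraries were fitted alone.

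Hey1 (ENSMUSG00000040289, chromosome 3, 8663362 to 8667039, minus strand), its close relative, was the most abundant of the 4 in DMSO per length and fell at the 2 upper doses. Its values were 169, 139 and 67.1 CPM in DMSO, 116, 125 and 43.0 at 1 µM, 41.1, 54.2 and 48.7 at 1.5 µM, and 10.4, 15.6 and 18.3 at 3 µM. Culture 3 was the lowest of the 3 in DMSO and the highest at 3 µM. The fold from 3 µM to DMSO was 16.3 in culture 1, 8.90 in culture 2 and 3.67 in culture 3. Hey1 differed from DMSO on the log2 scale by −0.40 ± 0.415 (adjusted p = 0.785), −1.38 ± 0.423 (0.0357) and −3.08 ± 0.454 (0.000298). The 1.5 µM call was lost in 5 of the 12 fits that left out 1 library, with adjusted p up to 0.117, and without a filter on low counts (0.0742).

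Heyl (ENSMUSG00000032744, chromosome 4, 123233556 to 123249875, plus strand) had the lowest level of the 4 in DMSO and ran in the same order of cultures at every dose. It stood at 4.80, 7.62 and 12.0 CPM in DMSO, at 4.42, 7.55 and 14.1 at 1 µM, at 2.36, 3.80 and 6.20 at 1.5 µM, and at 0.863, 1.41 and 1.93 at 3 µM. Within each culture the fall to 3 µM was alike, 5.56-fold, 5.39-fold and 6.19-fold. For Heyl the log2 fold changes were 0.10 ± 0.507 (adjusted p = 0.970), −0.98 ± 0.516 (0.184) and −2.52 ± 0.556 (0.00318). With the replicate block the 1.5 µM change was called (adjusted p = 0.000734), as were the steps from 1 to 1.5 µM (0.00235) and from 1.5 to 3 µM (0.000209), which had adjusted p = 0.260 and 0.0566 without it.

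Hes1 (ENSMUSG00000022528, chromosome 16, 30064384 to 30067796, plus strand) is a repressor that answers to Notch and to several other pathways. It was not called in any comparison between groups. Its values were 56.0, 39.8 and 35.4 CPM in DMSO, 58.9, 53.0 and 43.0 at 1 µM, 62.9, 57.2 and 48.3 at 1.5 µM, and 54.1, 48.3 and 59.9 at 3 µM. All groups overlapped the DMSO range. In log2 units Hes1 differed from DMSO by 0.24 ± 0.184 (adjusted p = 0.680), 0.36 ± 0.184 (0.172) and 0.31 ± 0.184 (0.177). They passed at 1.5 µM (0.58, adjusted p = 0.0305) and at 3 µM (0.53, 0.0226) when the DMSO library of culture 1 was left out.

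Promoters are shown for Hey2, which fell most, for Dll1, the ligand that fell, and for Notch3, the receptor that was not called, since Notch acts on its targets through RBPJ bound to DNA. They come from RefSeq (GRCm38.p6), written 5′ to 3′ along the gene's strand, with 250 bases before the start and the first 10 from it. Capitals mark the extended RBPJ motif CGTGGGAA and its complement TTCCCACG.
Hey2, chr10:30842774-30843033, minus strand: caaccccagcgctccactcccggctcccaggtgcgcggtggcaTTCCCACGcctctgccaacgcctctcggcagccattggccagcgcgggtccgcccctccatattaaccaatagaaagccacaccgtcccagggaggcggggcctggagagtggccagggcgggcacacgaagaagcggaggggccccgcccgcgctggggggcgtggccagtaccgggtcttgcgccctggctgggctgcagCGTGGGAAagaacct
Dll1, chr17:15376923-15377182, minus strand, the upstream of its 2 start sites in RefSeq: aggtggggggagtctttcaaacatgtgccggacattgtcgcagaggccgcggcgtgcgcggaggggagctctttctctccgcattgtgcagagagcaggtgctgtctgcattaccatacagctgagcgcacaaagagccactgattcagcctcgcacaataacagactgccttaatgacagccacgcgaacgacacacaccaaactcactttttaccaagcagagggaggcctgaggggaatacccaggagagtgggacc
Notch3, chr17:32166881-32167140, minus strand: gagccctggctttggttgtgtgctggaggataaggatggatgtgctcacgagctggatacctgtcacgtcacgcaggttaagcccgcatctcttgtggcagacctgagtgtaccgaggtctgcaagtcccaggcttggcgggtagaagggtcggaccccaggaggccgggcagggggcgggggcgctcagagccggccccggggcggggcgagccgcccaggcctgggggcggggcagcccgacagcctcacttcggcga

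RefSeq promoters of 300 bases (250 before the start and 50 from it) were matched for 7 of the 10 genes, Notch1, Notch2, Notch3, Jag1, Jag2, Dll1 and Hey2, and searched on both strands. Hey2 held the extended motif CGTGGGAA at 2 places, from −207 to −200 on the other strand and from −5 to 3 on the gene's strand, counted with the start site as 1 and the base before it as −1. The extended motif was in 0.734% of 32851 promoters of the same length. The core TGGGAA, which the extended motif contains, was in 25.6%, and in Hey2 it was found only inside those 2 matches. The other 6 genes, all receptors or ligands, held neither. None of the 7 held the TCF/LEF core CTTTGAT (3.73% of promoters) or the E-box CACGTG (7.15%). Hes1, Hey1 and Heyl had no matched promoter and were not searched, so Hey2 cannot be compared with them here. A match describes letters only, and these data hold no measure of binding.

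Levels can be set against each other per kilobase (kb) of exon, here the union of all annotated exons of a gene. That union was 14.232 kb for Notch1, 10.782 for Notch2 and 8.089 for Notch3, and may be longer than the transcripts present. Orders and shares between genes, here and for the Hes and Hey genes, depend on these lengths. Before division Notch1 held more CPM than Notch3 in DMSO (means 321 and 225). Among the receptors in DMSO, Notch3 stood at 27.8 ± 1.52 CPM per kb (SD, n = 3), Notch1 at 22.6 ± 3.39 and Notch2 at 15.5 ± 1.88. Notch3 was above Notch1 in every culture, and Notch2 was below both. At 3 µM the order was the same, with 23.6 ± 4.18, 15.2 ± 1.78 and 8.76 ± 0.864. Among the ligands Jag1 led in DMSO with 15.2 ± 0.564 CPM per kb, followed by Dll1 with 8.84 ± 2.45 and Jag2 with 6.78 ± 1.61, and Dll1 was above Jag2 in each culture while the ranges of both overlapped. At 3 µM Jag1 stood at 32.8 ± 15.9, Jag2 at 12.3 ± 0.270 and Dll1 at 3.46 ± 0.509, with Jag2 above Dll1 in every culture.

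Among the Hes and Hey genes the order turned over. In DMSO Hey1 led with 38.2 ± 16 CPM per kb, then Hes1 with 21.5 ± 5.32, Hey2 with 7.61 ± 0.650 and Heyl with 1.59 ± 0.705. Hey1 was above Hes1 in each culture, though only by 20.5 against 17.4 in culture 3, and the ranges of both genes overlapped. At 3 µM Hes1 led with 26.6 ± 2.84, and Hey1 stood at 4.52 ± 1.24, Heyl at 0.274 ± 0.105 and Hey2 at 0.106 ± 0.00480. Hes1 made up 31.7 ± 4.48% of the summed level of the 4 genes in DMSO and 44.4 ± 7.70% in the 1 µM group. This share was 61.8 ± 5.70% in the 1.5 µM group and 84.5 ± 3.51% in the 3 µM group. That sum itself went from 68.9 ± 20.5 to 31.5 ± 3.54 CPM per kb, while the 3 receptors went from 65.9 ± 5.49 to 47.6 ± 5.42 and the 3 ligands from 30.8 ± 4.55 to 48.6 ± 16.3. The share of Hes1 went up while Hes1 itself was not called and the other 3 genes fell.

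**Figure D3:**
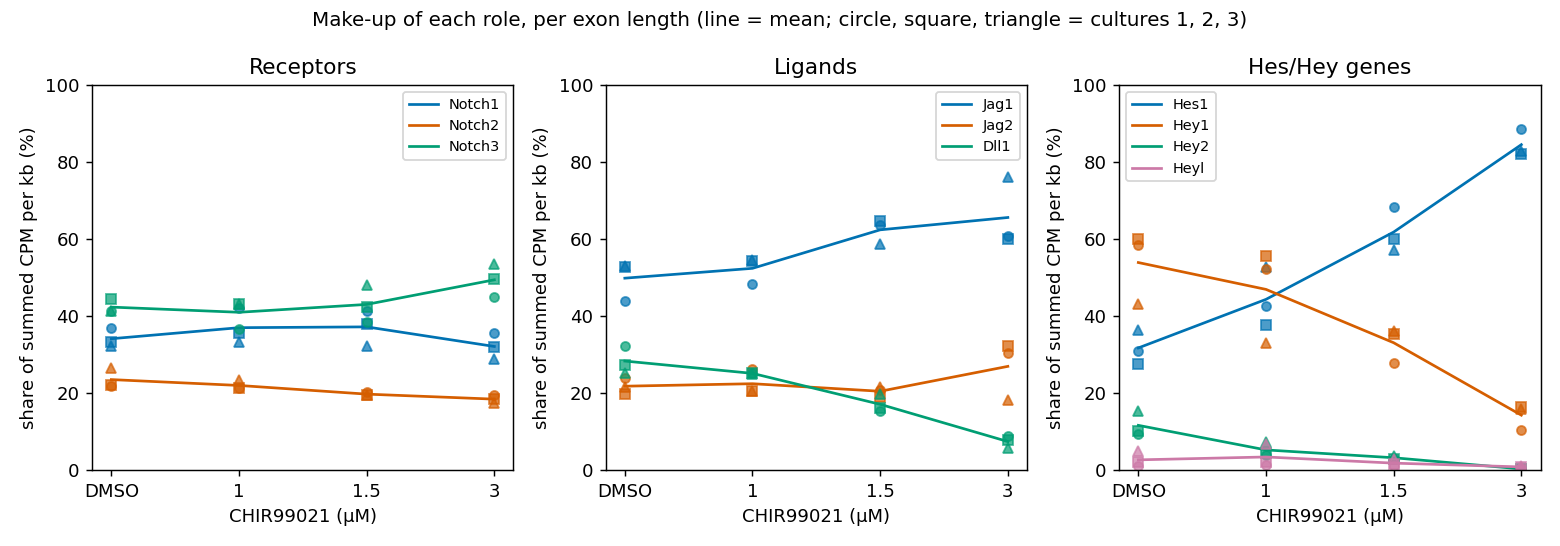
Share of each gene in the summed CPM per kb of its role (percent) against dose, with lines for the mean and symbols for the 3 cultures. Hes1 passes Hey1 between 1 and 1.5 µM in the mean and reaches 84.5% at 3 µM, and Dll1 goes from 28.3% of the ligands to 7.45%.

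Ratios between members of a role were tested over dose by exact permutation of the 4 doses within each culture (two-sided, 13824 arrangements, 12 ratios, Benjamini-Hochberg adjustment). The ratio of Jag1 to Dll1 rose by 0.82 log2 units per µM (exact p = 7.23e-05, the smallest the arrangements allow, adjusted p = 0.000289), and that of Jag2 to Dll1 by 0.76 (exact p = 0.000145, adjusted p = 0.000347). Jag1 against Jag2 had a slope of 0.05 (exact p = 0.592), and no shift between the 2 Jagged ligands was detected. Hes1 rose against Hey1 by 1.15 (exact p = 0.000145), against Hey2 by 2.09 (7.23e-05) and against Heyl by 0.97 (7.23e-05), with adjusted p of 0.000347, 0.000289 and 0.000289 in these permutation tests. Hey2 fell faster than its relatives. Hey1 against Hey2 rose by 0.94 and Hey2 against Heyl had a slope of −1.12 (exact p = 0.000289 and adjusted p = 0.000496 for each). Hey1 against Heyl had a slope of −0.18 (exact p = 0.309, adjusted p = 0.337), which became −0.43 without culture 3 (adjusted p = 0.00298 by the same exact test). Of the receptor ratios, Notch2 to Notch3 had a slope of −0.20 (exact p = 0.000651, adjusted p = 0.000977), and Notch1 to Notch2 and Notch1 to Notch3 had 0.08 and −0.12 (adjusted p = 0.0780 and 0.0760, exact permutation). In all, 8 of 12 ratios were called, and these share genes with each other, so they are not separate results. The share called among ratios of other gene pairs was not computed, and 58.2% of all genes had a called slope per µM in edgeR.

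Over all 4 groups a slope per µM was called for 8 of the 10 genes, beside 58.2% of all genes. It was largest for Hey2 (−2.01 ± 0.113 log2 units per µM, adjusted p = 6.82e-07) and Hey1 (−1.08 ± 0.162, adjusted p = 0.000165). Notch3 had −0.08 ± 0.0368 (adjusted p = 0.0664) and was called by DESeq2 (0.0239), with library size alone (0.0172), without culture 3 (0.00592) and without the 3 µM library of culture 3 (0.00239). Jag1 had 0.39 ± 0.0830 (adjusted p = 0.00176), and 0.22 without culture 3 (0.00945). Notch1 had −0.21 ± 0.0691 (adjusted p = 0.0200), which was lost without culture 2 (0.0866), without culture 3 (0.0581) and without the 3 µM library of culture 2 (0.0720). Of all genes 30.2% were called with a rising and 28% with a falling slope, and of the 10 genes 2 and 6. Between neighbouring doses, Hey2 alone was called from 1 to 1.5 µM, where it was lower (beside 5.43% of all genes, 4.43% higher and 0.992% lower). From 1.5 to 3 µM 6 were called, Jag2 higher and Notch1, Notch2, Dll1, Hey1 and Hey2 lower (beside 29.7%, 17% higher and 12.7% lower). With the replicate block the first count was 3 (Notch2, Hey2 and Heyl, beside 21.9%), and DESeq2 gave 2. The count from 1.5 to 3 µM ranged from 1 to 7 as each library was left out. From 1 to 3 µM, 8 were called, 2 higher and 6 lower, beside 52% of all genes, 27.8% and 24.2%. The call of Jag1 there (0.97, adjusted p = 0.0126) was lost with library size alone (0.0580) and with only the 2 groups fitted (0.0667). With library size alone as scaling, the genes called over the whole table split into 3233 higher and 5157 lower for the slope (4624 and 4284 with TMM). They split into 1050 and 3860 from 1.5 to 3 µM (2601 and 1943 with TMM) and into 2649 and 5534 from 1 to 3 µM (4260 and 3708 with TMM). Groups whose values do not overlap can be counted without a model. At 3 µM the values of 2 genes lay wholly above DMSO and those of 6 wholly below, beside 30.9% and 29.9% of all genes. At 1.5 µM 1 lay wholly above (Jag1) and 4 wholly below (Notch2, Notch3, Hey1 and Hey2), beside 24.9% and 20.7%. At 1 µM 1 lay wholly below (Hey2), beside 8.27%.

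The cultures differed in level for Notch1 (adjusted p = 0.0241) and Heyl (adjusted p = 0.000462) in a model with dose group and culture, in which 28.8% of all genes were called. Notch1 was highest in culture 1 at every dose and Heyl was highest in culture 3. The slope with dose was not called different between cultures for any of the 10 genes. In edgeR 0% of all genes were called in that test, with 1230 of 15316 at an unadjusted p under 0.05, and DESeq2 called 231. The unadjusted p of Jag1 was 0.0107, of Notch3 0.0411 and of Hey1 0.0480 in edgeR's test, and their adjusted p were 0.477, 0.595 and 0.616.

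Markers of other cells moved with dose and culture. A list of 6 endothelial genes (Pecam1, Cdh5, Kdr, Tek, Tie1, Emcn) summed to 279 to 582 CPM in DMSO, 109 to 384 at 1 µM, 43.9 to 214 at 1.5 µM and 31.3 to 96.6 at 3 µM, where 6 of 6 were called lower. A list of 5 pericyte genes (Rgs5, Pdgfrb, Cspg4, Kcnj8, Abcc9) went from 136 to 516 CPM in DMSO to 111 to 512, 45.8 to 256 and 20.1 to 114 at 1, 1.5 and 3 µM, with 3 of 5 called lower at 3 µM and 5 of 5 with the replicate block. The fibroblast list (Col1a1, Col3a1, Pdgfra, Dcn, Lum) went from 1069 to 15356 CPM in DMSO to 113 to 3348 at 3 µM. Of these, 0 of 5 were called at 3 µM in edgeR, with 0 at an unadjusted p under 0.05, 4 of 5 were called lower with the replicate block and 1 in DESeq2. An immune list, with 3 of 4 genes in the table, went from 25.6 to 173 CPM in DMSO to 9.96 to 51.4, with 2 of 3 called lower. These counts stand beside 27.7% of all genes called lower at 3 µM in edgeR. The replicate block called 5335 of all 15316 tested genes lower and 5224 higher at this dose, and DESeq2 called 4605 lower.

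Heyl and the pericyte, fibroblast and immune lists each rose from culture 1 to culture 2 to culture 3 in every group. All were lower at 3 µM than in DMSO in each culture. Within the fibroblast list Dcn differed, going from 38.7, 219 and 625 CPM in DMSO to 13.9, 115 and 1071 at 3 µM. The part of pericytes, fibroblasts and immune cells in the Heyl result was not tested. Nor was that of these or endothelial cells in the results on Hey1, Hey2, Notch3, Notch4 or Dll4. Hey2 followed that order at 1.5 µM but not in DMSO or at 1 or 3 µM. In DMSO Hey2 ranged from 32.9 to 38.4 CPM, the fibroblast list from 1069 to 15356 and the endothelial list from 279 to 582. At 1 µM Hey2 was between 12.6 and 14.1 CPM in all cultures. By 3 µM Hey2 and both lists were lower than in DMSO in every culture. Which cells held the Hey2 RNA was not tested.

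**Figure D4:**
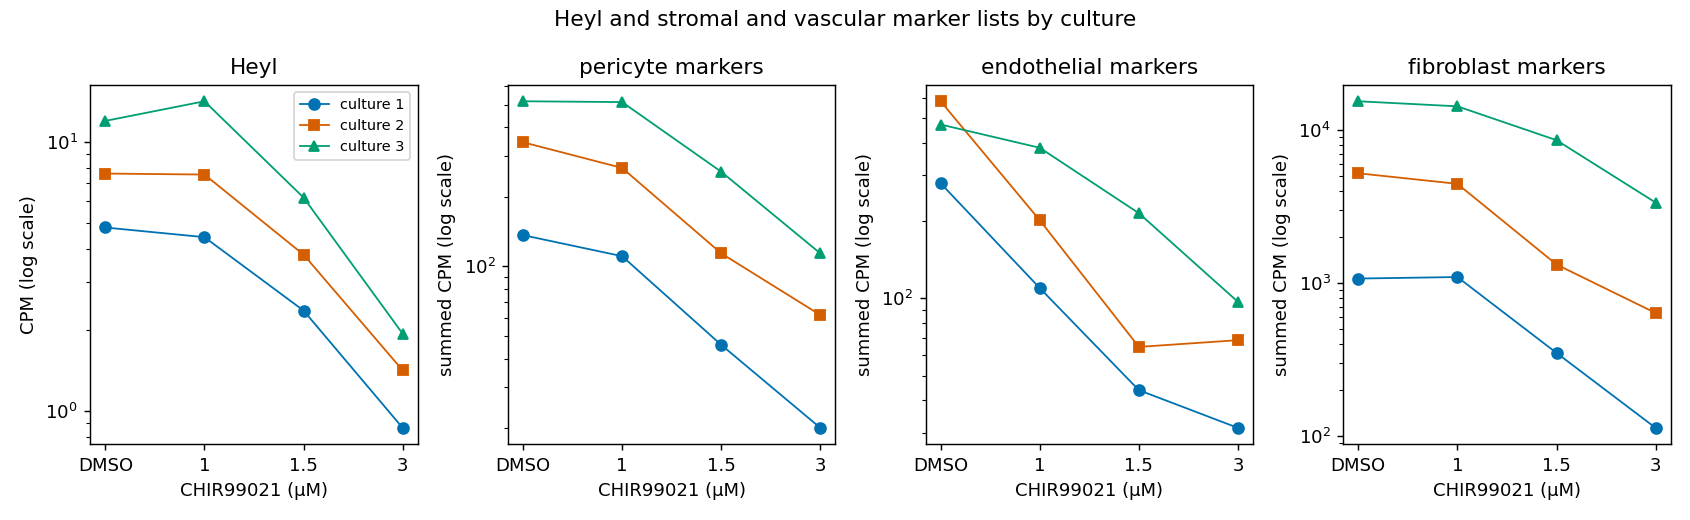
CPM of Heyl and summed CPM of the pericyte, endothelial and fibroblast marker lists (log axes) against dose, 1 line per culture. Heyl, the pericyte list and the fibroblast list are lowest in culture 1 and highest in culture 3 at every dose, and in the endothelial list cultures 2 and 3 change places between DMSO and 1 µM.

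The epithelial make-up moved as well. Of the 4 epithelial markers, 2 were called lower at 3 µM and 0 higher, and the replicate block called 2 lower and 1 higher. Their sum was 1870 to 2975 CPM in DMSO and 2007 to 2261 at 3 µM. Of 7 basal or myoepithelial genes, Krt5, Krt14 and Trp63 were called higher at 3 µM and the contractile genes Acta2, Myh11 and Cnn1 and the oxytocin receptor Oxtr were called lower. The list summed to 2013 to 3281 CPM in DMSO and 14456 to 31310.2 at 3 µM. All 6 genes of a squamous list (Krt1, Krt10, Ivl, Lor, Flg, Sprr1b) were called higher, from 4.06 to 12.6 CPM in DMSO to 16917, 13038.5 and 819 CPM at 3 µM in cultures 1, 2 and 3. Of 5 hormone-sensing genes (Esr1, Pgr, Prlr, Foxa1, Areg), 3 were called lower and Areg higher, and the sum went from 172 to 282 CPM in DMSO to 119.6 to 139 at 3 µM. Of 5 luminal progenitor or alveolar genes (Elf5, Kit, Aldh1a3, Csn3, Ltf), Ltf was called higher and Aldh1a3 lower. The calls on these epithelial lists stand beside 29.9% of all genes called higher at 3 µM and 27.7% called lower. Culture 3 at 3 µM combined the highest Jag1 (298 CPM) and Notch3 (229.7 CPM) of that group with the lowest squamous sum. That 1 library also held the highest fibroblast (3348 CPM), pericyte (114), endothelial (96.6) and immune (51.4) sums of the group, and the highest Hes1, Hey1 and Heyl. Acta2, Myh11, Cnn1 and Oxtr were, like Hey2, lower at 3 µM than in DMSO in every culture, but not in the same steps. In culture 2 Cnn1 stood at 0.307 CPM at 1.5 µM and 0.898 at 3 µM, on 8 and 14 counts. In culture 3 Oxtr was nearly level from DMSO to 1 µM. Oxtr stood at 176, 168 and 216 CPM in DMSO, at 70.5, 105 and 215 at 1 µM, at 21.1, 25.4 and 132 at 1.5 µM, and at 2.59, 0.963 and 0.621 at 3 µM. Myh11, a smooth muscle myosin, stood at 54.1, 73.3 and 112 CPM in DMSO, 13.8, 20.2 and 45.4 at 1 µM, 5.47, 4.50 and 14.2 at 1.5 µM, and 1.25, 2.82 and 2.14 at 3 µM. Both stayed highest in culture 3 at 1 and 1.5 µM, where Hey2 stood at 12.6, 14.1 and 13.5 CPM and at 6.11, 6.49 and 7.18. The part of these cell states in the results on Hey1, Hey2, Jag1, Jag2, Dll1 and Notch3 was not tested.

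The rest of the pathway was followed through 52 further genes in 7 lists, of which 46 could be tested. None of the untested Dll3, Helt, Hes2, Hes3, Hes5 and Hes7 exceeded 5 counts in a library. At 1 µM 0 of 46 were called in edgeR, with 4 at an unadjusted p under 0.05, and DESeq2 also called 0. With the replicate block Psen2 was called lower (adjusted p = 0.0206), beside 859 of the 15316 tested genes called at this dose. At 1.5 µM 9 were called (5 higher and 4 lower, beside 15.4% and 11.8% of all genes). With the replicate block 21 of the 46 were called (11 higher and 10 lower). The block called 46.7% of all 15316 tested genes at 1.5 µM, 3420 higher and 3727 lower. At 3 µM 30 were called, 9 higher and 21 lower, beside 57.5% of all genes called, 29.9% higher and 27.7% lower. The median log2 fold change of the 46 genes at 3 µM was −0.29 against −0.03 over all genes.

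Among the receptors and ligands outside the 10, Notch4, the receptor of endothelial cells, fell at 3 µM. Its mean was 48.1 ± 18.3 CPM in DMSO and 8.47 ± 4.47 at 3 µM, a log2 fold change of −2.50 (adjusted p = 0.0120). Dll4, the ligand of tip and arterial endothelium, stood at 27.0 ± 14.6 and 10.8 ± 8.04 CPM (−1.32, adjusted p = 0.251, and 0.00798 with the replicate block). Both are known as endothelial genes, and the endothelial list was also lower at 3 µM. The part of endothelial cells in the Notch4 and Dll4 values was not tested. Dlk1, a relative of the ligands, was called lower (adjusted p = 0.0407) on few counts, 0, 12 and 62 in DMSO and 0, 1 and 0 at 3 µM.

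Of 10 genes for receptor cleavage, 3 rose at 3 µM (Adam17, Aph1a and Psenen) and 4 fell (Furin, Psen2, Ncstn and Aph1c), beside 29.9% of all genes called higher and 27.7% lower. Psen2 codes for a catalytic subunit of γ-secretase, the protease that frees the intracellular domain. Psen2 fell with dose, from 26.8, 36.2 and 26.9 CPM in DMSO to 14.8, 16.8 and 12.3 at 1.5 µM and 6.82, 7.70 and 6.62 at 3 µM (log2 fold change −2.08 ± 0.168 at 3 µM, adjusted p = 7.22e-06).

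The Fringe genes, which code for enzymes that add sugar to the receptors and shift their preference between Delta and Jagged ligands, moved in opposite directions. Lfng fell from 27.9, 36.2 and 21.1 CPM in DMSO to 3.61, 5.07 and 7.18 at 3 µM (log2 fold change −2.42 ± 0.278, adjusted p = 5.76e-05) and was already called at 1.5 µM (−1.14, adjusted p = 0.0105). Mfng fell from 9.20 ± 2.87 to 0.851 ± 0.603 CPM (−3.40, adjusted p = 0.00107). Rfng rose from 20.0, 20.8 and 23.1 CPM in DMSO to 48.0, 51.1 and 30.1 at 3 µM (1.02 ± 0.173, adjusted p = 0.000613). Pofut1, which adds the fucose that Fringe enzymes extend, was called lower at 3 µM (−0.49, adjusted p = 0.00823).

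Of the nuclear genes, Rbpj itself stood at 90.7 ± 19.2 CPM in DMSO and 94.6 ± 35.8 at 3 µM (log2 fold change 0.06, adjusted p = 0.846). The Mastermind coactivators diverged. Maml3 rose from 30.9 ± 2.1 to 64.2 ± 5.29 CPM (1.05, adjusted p = 7.09e-05), and Maml1 and Maml2 were called lower (−0.31 and −0.78, adjusted p = 0.0344 and 0.000220). Of the Groucho-type corepressors, Tle3 was called higher (0.45, adjusted p = 0.00870), and Tle1 and Tle2 lower (−0.47 and −1.38, adjusted p = 0.0242 and 3.82e-05). Of 9 genes for restraint and turnover, Fbxw7 was called higher and Numb, Numbl, Dtx3 and Dtx3l lower, and of 4 ligases for ligand uptake Mib2 and Neurl1b were called lower. These counts too stand beside 29.9% of all genes called higher and 27.7% lower.

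Nrarp went against the Hey genes. It codes for an ankyrin-repeat protein that is itself a target of Notch and restrains the receptor's intracellular domain. Its values were 30.8, 15.9 and 15.1 CPM in DMSO, 24.1, 13.8 and 22 at 1 µM, 39.7, 26.5 and 45.1 at 1.5 µM, and 94.3, 66.8 and 94.5 at 3 µM. The 3 µM libraries lay above all others. In log2 units these were changes of −0.05 (adjusted p = 0.975), 0.84 (0.0792, and 0.00729 with the replicate block) and 2.04 ± 0.325 (0.000534). So at 3 µM, of the listed targets that could be tested here, Nrarp rose, Hey1, Hey2 and Heyl fell, and Hes1 and Hes6 were not called. Hes6, of the same list of further targets as Nrarp, had a log2 fold change of −0.10 (adjusted p = 0.50).

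**Figure D5:**
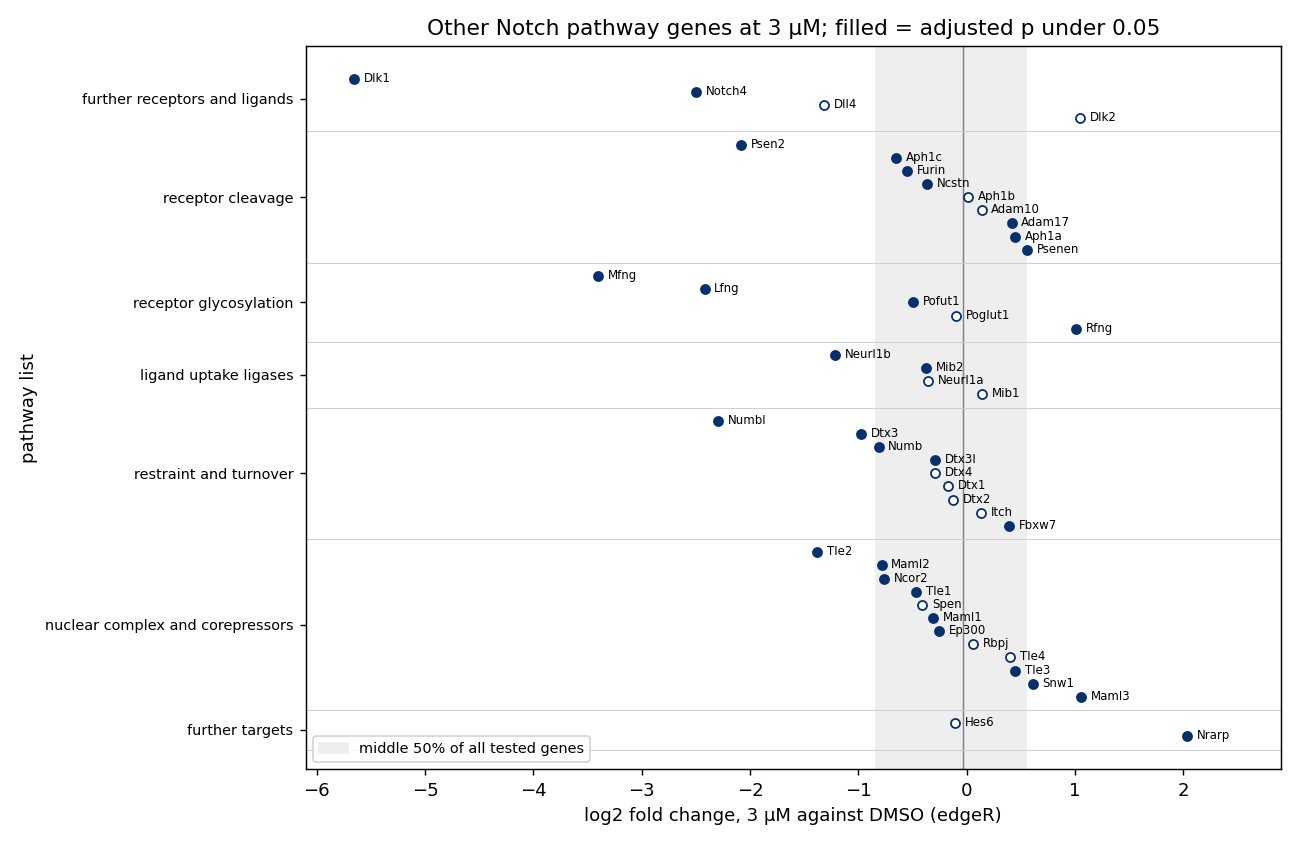
The log2 fold change at 3 µM against DMSO (edgeR) of tested pathway genes outside the 10, grouped by list and without 1 gene of the cleavage list. Filled points have an adjusted p under 0.05, and the grey band is the middle 50% of all tested genes around their median of −0.03. Nrarp at 2.04 lies farthest to the right and Dlk1 farthest to the left.

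For each of the 8 genes called in at least 1 dose, the genes with the most similar profile were taken as those with the smallest root mean square difference in centred log2 CPM over the 12 libraries, among 12438 genes averaging at least 50 counts. For Hey2 the nearest were Ccdc121 (0.27 log2 units), Ramp1, a subunit of the receptor for calcitonin gene-related peptide (0.38), and the collagen gene Col28a1 (0.45), where Hey2 itself varied by 2.17 (SD). For Hey1 they were Padi2 (0.29), Kazald1 (0.30) and Aox1 (0.32), and for Heyl Fkbp7 (0.21), C1qtnf6 (0.25) and Gria3 (0.25). For Dll1 they were Tmem8b (0.20), the prolactin receptor Prlr (0.21) and Bace1 (0.21). For Jag1 they were Ivns1abp (0.14), Il1rap (0.17) and Slc25a37 (0.19), and for Jag2 Plch2 (0.11), Nfe2l2 (0.13), which codes for the oxidative stress regulator NRF2, and Zfp830 (0.14). For Notch1 they were Baz2b (0.08), Zfp362 (0.09) and Lzts2 (0.10), and for Notch2 Specc1l (0.08), Crtc3 (0.09) and Mkl2 (0.09). The libraries that define these distances are the ones in which the genes were tested, so the likeness is a description. No gene of the Notch lists was among them.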

How the data were processed

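The deposited table holds raw read counts per gene for the 12 libraries, counted by the authors. The submitters' processing notes name TopHat2 2.1, Bowtie 1.1.0, HTSeq, DESeq2 and the build GRCm38 (mm10), with no roles. The strand setting and annotation release are not given in the sources used here. The authors' second table, which by its name and values holds log2 counts scaled to a common depth, was not used. Coordinates are those of the deposited table. Gene overlaps and exon lengths came from GENCODE M21, where 24918 of the 25210 gene identifiers were found.

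Genes were filtered with filterByExpr, leaving 15316, given TMM factors and tested with edgeR 4.0.16 (R 4.3.3, limma 3.58.1) by quasi-likelihood with 1 mean per group and no block, two-sided, with Benjamini-Hochberg adjustment over all tested genes and a threshold of 0.05. SEs are the log2 fold change divided by the square root of F. CPM are given as mean ± SD over 3 libraries. Level profiles and ratios used log2 CPM with a prior count of 2. Libraries held 10129264 to 24485855 counts, and replicates differed by at least 12.8 in chi-square per degree of freedom, so none was treated as a copy. The replicate numbers pair the libraries, since each number is 1 animal per the series' design text. Deviations from group means correlated at 0.177 to 0.840 in 18 pairs with the same number (median 0.505), against a median of −0.212 in 36 other pairs. The main fit leaves this pairing out, so its SEs include the spread between animals. The common biological coefficient of variation, edgeR's measure of spread, was 0.305 without the block and 0.156 with it. Genes called went from 37 to 859 at 1 µM and from 8814 to 10559 at 3 µM with the block. Alternatives were scaling by library size alone, no filter, the replicate block, DESeq2 1.42.0, only the 2 groups compared, another prior count (0.5), and leaving out each library or culture. The fit was tested on simulated data drawn without differences between animals. That test cannot show how leaving out the pairing affects the calls. Named genes are the 10 members, the pathway genes called at any dose and the 3 nearest profiles of each called member. Rbpj, Hes6 and Dll4, also named, were chosen after their values were seen. The values of 1 gene of the receptor cleavage list are not reported here, and the counts over lists include it. The members and lists were chosen with earlier results of these data known.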

Additional observations from a re-analysis of the deposited data

How the results depend on the processing

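Of 70 log2 fold changes and slopes of the 10 genes recomputed with scaling by library size alone, 60 kept direction and side of the threshold, 3 lost and 4 gained a call, and 3 uncalled values changed sign: Notch3 at 1 µM (0.044), Notch1 at 1.5 µM (0.031) and Hes1 from 1 to 3 µM (−0.21). The replicate block kept 65 of 70, DESeq2 66 of 70, no filter 68 of 70 and a fit of only the 2 groups compared 55 of 60. With the replicate block the counts over all genes were 859 at 1 µM, 7147 at 1.5 µM, 3351 from 1 to 1.5 µM and 7149 from 1.5 to 3 µM. The 10 genes had 5 calls at 1.5 µM and 3 from 1 to 1.5 µM under this pairing, and the other pathway genes 1 at 1 µM and 21 at 1.5 µM. Apart from calls named in the report, the block changed no other call of the 10 genes. DESeq2 called 485 genes at 1 µM and 1646 from 1 to 1.5 µM, 2 of the 10 in the latter. Without the filter 494 genes were called from 1 to 1.5 µM. With only the 2 groups fitted, 0 of all genes and 0 of the 10 were called at 1 µM, and 2852 of all genes from 1.5 to 3 µM. The causes were not tested. The fits of 2 groups held fewer libraries and were filtered anew, which left 14885 genes at 1 µM. All 12 ratios kept their side of the threshold with a prior count of 0.5 and with no replicate block.

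When each library was left out in turn, all genes called ranged from 3 to 50 at 1 µM, 2462 to 5085 at 1.5 µM, 135 to 1508 from 1 to 1.5 µM and 2962 to 5682 from 1.5 to 3 µM, and the slopes called, with whole cultures left out too, from 5778 to 9062. Calls among the 10 ranged from 1 to 2 for 1 to 1.5 µM and from 1 (without the 3 µM library of culture 2) to 7 for 1.5 to 3 µM, and among the other pathway genes from 3 to 12 at 1.5 µM. Values that changed sign were all uncalled in the full data. At 1 µM Notch1 ranged from −0.025 to 0.27, Notch3 from −0.083 to 0.015, Jag2 from −0.049 to 0.29, Dll1 from −0.31 to 0.11 and Heyl from −0.44 to 0.47. At 1.5 µM Notch1 ranged from −0.15 to 0.092 and Jag2 from −0.0037 to 0.40. Jag2 ranged from −0.077 to 0.21 between 1 and 1.5 µM, and Hes1 from −0.15 to 0.036 between 1.5 and 3 µM and from −0.048 to 0.17 between 1 and 3 µM. Without a culture the ratio slope of Jag1 to Jag2 ranged from −0.053 to 0.16 and that of Hey1 to Heyl from −0.43 to 0.023. Depth limits Hey2 and Heyl at 3 µM, where libraries held 6 to 8 and 11 to 28 counts.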
